A study of Mus musculus with 24 samples.

Results

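H3K4me3 was examined at the promoters of 7 mouse genes whose functions in neurons are little described: *Golga7b*, *Fam43b* and *Fam135b*, their paralogs *Golga7*, *Fam43a* and *Fam135a*, and *Xkr4*. A region was taken for a gene when it overlapped an annotated transcription start site (TSS) of that gene, which gave 7 regions of the 17993 that were counted. *Golga7b*, *Fam43b* and *Fam135b* were chosen by the study from the difference between the lines in tChIP-Seq. By in situ hybridization the study also saw their transcripts in large cortical neurons, though not exclusively, and it shows ribosome footprints on them in mouse brain. *Xkr4* was added with results of these data known, so it is treated as chosen by the same tChIP-Seq values. The paralogs were taken as the relatives of these genes. The tChIP-Seq values of these genes are therefore a description, and no test is drawn from them.

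H3K4me3 had been measured in cerebral cortex of C57BL/6 mice by single ChIP-Seq, with an anti-H3K4me3 monoclonal antibody on whole-tissue chromatin, and by tandem ChIP-Seq (tChIP-Seq), in which chromatin carrying FLAG-tagged histone H2B was first captured with anti-FLAG M2 beads. The question was whether the tandem purification reads promoters of neurons within a mixed tissue. Mice with the genotype Rosa CAG-H2B-FLAG (*Rosa* line) carry tagged H2B in nearly all cells of the cortex, since the stop cassette was removed in the germ line by *Vasa*-Cre. Mice labelled Rosa26 CAG-floxed-pA-H2B-FLAG/ CaMKCreERT2 (*Camk2a* line) express it only after tamoxifen, in cells where the *Camk2a* promoter drives CreERT2, mainly excitatory neurons of the forebrain. These were double heterozygous males given 1 mg of tamoxifen a day for 5 days from 8 weeks of age, and sampled a month later. The *Rosa* mice were adults without a stated sex or tamoxifen course. Line and tamoxifen therefore cannot be told apart, nor can any difference in sex or exact age. Each lysate pooled 2 animals.

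Line and kind of ChIP gave 4 groups of 3 libraries, and all 12 libraries were counted on the same regions. The other 12 samples of the series, input and FLAG libraries, were not used here. Total counts were 6316125 to 8644574 in *Rosa* single ChIP-Seq, 1457261 to 1828371 in *Rosa* tChIP-Seq, 4063200 to 4233144 in *Camk2a* single ChIP-Seq and 2709729 to 3049130 in *Camk2a* tChIP-Seq. The shallowest group was thus *Rosa* tChIP-Seq, where the 7 regions held the fewest counts, down to 62 for *Fam135b* in 1 library. Summed over the 12 libraries, the 7 regions held from 3232 counts at *Golga7* to 6770 at *Xkr4*. Levels are given as CPM, that is counts over the TMM-scaled size of the library, with SD over n = 3 libraries.

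Trimethylation of lysine 4 on histone H3 gathers on nucleosomes around the start sites of active genes, and a broad domain of it is typical of genes that mark the identity of a cell type. GOLGA7 is a Golgi protein that forms a complex with the palmitoyltransferase ZDHHC9, and its paralog GOLGA7B is a partner of ZDHHC5, an enzyme found at synapses. The FAM43 proteins carry a predicted phosphotyrosine-binding domain and the FAM135 proteins a predicted lipase-like domain, while XKR4 belongs to the XK-related family, several of whose members scramble phospholipids of the plasma membrane once caspases have cut them.

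The tissue label was checked with marker genes. Of 7 excitatory neuron markers reported here, 6 had a region (*Tbr1* had none), and their summed level was 656.9 ± 9.355 CPM in *Rosa* single, 346.9 ± 19.7 in *Rosa* tChIP, 659.3 ± 13.43 in *Camk2a* single and 837.5 ± 21.09 in *Camk2a* tChIP-Seq, with *Nrgn* or *Neurod2* the most abundant of them in each library. Of 4 cortical identity genes reported here, 3 had a region (*Tbr1* had none), and of 9 genes of other brain regions 2 had one, *En2* and *Pax2*. Between the lines in tChIP-Seq, these 6 excitatory markers were called higher in *Camk2a* (median log2 fold change 1.34), while 6 of 7 astrocyte markers (median -1.77), 7 of 7 endothelial markers (-2.19), 3 of 3 mural markers (-1.98), 5 of 7 inhibitory neuron markers (-1.03) and 4 of 6 oligodendrocyte markers (-1.14) were called lower, against 17.0% of all regions higher and 14.6% lower. *Slc1a2* (0.38) and *Mbp* (1.18) went the other way on the astrocyte and oligodendrocyte lists. Each listed gene was read at a single region, the one with the highest total count where it had several. The *Mbp* value is that of chr18:82643953-82646548, and other start sites of this gene were not examined, so it may not stand for all its promoters. The summed astrocyte markers stood at 520.3 ± 9.82 (*Rosa* single), 633.6 ± 22.8 (*Rosa* tChIP), 528 ± 21.1 (*Camk2a* single) and 365 ± 9.90 CPM (*Camk2a* tChIP), and the summed endothelial markers, led by *Flt1* or *Sox18*, at 200.2 ± 5.69, 253 ± 8.82, 201.5 ± 4.74 and 68.2 ± 2.95. Of the cortical identity genes *Emx1* and *Lhx2* were higher and *Emx2* was lower (list median 0.60), and of *En2* and *Pax2* 1 was lower (median -0.63). No TSS of the 8 microglial markers lay in a region, although a region lay within 500 bp of the 5′ end of 3 of them (*Csf1r*, *C1qa* and *Tmem119*), so that cell type was not measured under the TSS rule used here. In bulk chromatin, fewer cells of a type and less H3K4me3 per cell cannot be told apart, and the part of cell composition in the values of the 7 genes was not tested.

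In mm9 coordinates, *Golga7b* was represented by chr19:42329618-42333496. This region lies inside the gene on the plus strand and covers the TSS of the shorter protein-coding transcript, at 42330229. The TSS of the longer transcript, at 42322064, lay 7554 bp outside and in no region. *Golga7* on the minus strand had chr8:24365968-24368361, with the TSSs of 2 coding transcripts, and the TSS of a retained-intron transcript, at 24355650, lay in no region. The single-exon genes *Fam43a* (chr16:30599265-30602816, plus strand) and *Fam43b* (chr4:137949312-137952939, minus strand) lay largely under their own regions. The *Fam43b* region also holds the TSS of *AB041806*, a coding gene on the plus strand that overlaps *Fam43b* (137951113 to 137953629), and counts from these genes could not be separated. *Fam135a* had chr1:24105603-24107841 and *Fam135b* chr15:71555657-71559238, both on the minus strand at the 5′ end of long genes. *Xkr4* on the minus strand had chr1:3657827-3662894 at the TSS of its coding transcript, and its 2 processed transcripts start 451402 and 452114 bp away. No other counted region lay within any of the 7 genes.

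*Golga7b* and *Golga7* are the acyltransferase partners. In single ChIP-Seq, *Golga7b* stood at 66.8, 61.3 and 60.4 CPM in the *Rosa* libraries and at 57.8, 64.9 and 68.0 in the *Camk2a* libraries. In tChIP-Seq it stood at 47.5, 53.1 and 44.6 CPM in *Rosa* and at 109, 109 and 112 in *Camk2a*. The 3 *Camk2a* tChIP libraries were above all others, the 3 *Rosa* tChIP libraries below all others, and the single ChIP groups overlapped. Group means were 62.8 ± 3.47 (*Rosa* single), 63.6 ± 5.22 (*Camk2a* single), 48.4 ± 4.31 (*Rosa* tChIP) and 110.0 ± 1.45 CPM (*Camk2a* tChIP). *Golga7* ranged only from 55.3 to 73.6 CPM over the 12 libraries. Its group means of 70.0 ± 4.17, 68.8 ± 4.03, 63.0 ± 8.51 and 66.0 ± 2.87 CPM in the same order did not separate, as each group overlapped every other.

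*Fam43b* and *Fam43a* showed a wider split. *Fam43b* in single ChIP-Seq was at 129, 136 and 118 CPM in *Rosa* and at 133, 119 and 113 in *Camk2a*. In tChIP-Seq it was at 75.7, 85.3 and 72.2 CPM in *Rosa* and at 189, 205 and 186 in *Camk2a*. Again the tChIP groups lay on either side of the overlapping single ChIP groups, with means of 77.7 ± 6.79 and 194 ± 10.3 against 128 ± 8.86 (*Rosa* single) and 122 ± 10.2 CPM (*Camk2a* single). For *Fam43a* the single ChIP libraries read 98.8, 96.8 and 96.5 CPM in *Rosa* and 86.9, 92.8 and 91.2 in *Camk2a*. The tChIP libraries read 89.2, 88.3 and 102 CPM in *Rosa* and 72.2, 75.8 and 79.9 in *Camk2a*. Here the *Camk2a* tChIP libraries were the lowest and apart from every other library (76.0 ± 3.88 CPM), and the *Camk2a* single libraries lay below the *Rosa* single libraries (90.3 ± 3.06 against 97.4 ± 1.23), while *Rosa* tChIP (93.1 ± 7.49) overlapped both.

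*Fam135b* and *Fam135a*, long genes of the lipase-like family, split in a similar way. *Fam135b* in single ChIP-Seq was at 79.8, 82.6 and 76.1 CPM in *Rosa* and at 83.0, 83.8 and 76.8 in *Camk2a*. In tChIP-Seq it was at 43.8, 37.0 and 49.9 CPM in *Rosa* and at 109, 104 and 109.8 in *Camk2a*. The tChIP groups separated from each other and from the overlapping single ChIP groups, and the means were 43.6 ± 6.45 (*Rosa* tChIP), 79.5 ± 3.25 (*Rosa* single), 81.2 ± 3.83 (*Camk2a* single) and 107 ± 3.29 CPM (*Camk2a* tChIP). *Fam135a* in single ChIP-Seq was at 109, 112 and 113 CPM in *Rosa* and at 102, 103 and 103 in *Camk2a*. Its tChIP means were 95.3 ± 8.99 CPM in *Rosa* and 99.7 ± 6.68 in *Camk2a*. *Fam135a* in *Rosa* single was thus above *Camk2a* single in each library (111 ± 1.67 against 103 ± 0.778), and the tChIP groups overlapped each other and *Camk2a* single.

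*Xkr4*, with no paralog among the 7 genes, had the highest count summed over the libraries. It stood at 146, 144 and 150.0 CPM in *Rosa* single and at 143, 137 and 146 in *Camk2a* single ChIP-Seq. In tChIP-Seq it stood at 93.9, 80.5 and 93.2 CPM in *Rosa* and at 165, 169 and 173 in *Camk2a*. As at *Golga7b*, *Fam43b* and *Fam135b*, the tChIP groups lay on either side of the single ChIP groups, with *Rosa* tChIP lowest (89.2 ± 7.53), *Camk2a* single (142 ± 4.34) and *Rosa* single (147 ± 3.03) overlapping, and *Camk2a* tChIP highest (169 ± 3.71 CPM).

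Regions differ in length, so levels of different genes were compared as CPM per kb of region. In *Rosa* single ChIP-Seq the order was *Fam135a* (49.7), *Fam43b* (35.2), *Golga7* (29.3), *Xkr4* (29.0), *Fam43a* (27.4), *Fam135b* (22.2) and *Golga7b* (16.2). *Golga7* and *Xkr4* differed there by less than the SD of *Golga7*, and *Golga7b* was the lowest of the 7. In *Camk2a* tChIP-Seq *Fam43b* came first (53.4), ahead of *Fam135a* (44.5), *Xkr4* (33.3), *Fam135b* (30.0), *Golga7b* (28.3), *Golga7* (27.6) and *Fam43a* (21.4). The level of *Golga7b* there was within 1 SD of that of *Golga7*.

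Each neuronal gene was then set beside its paralog as a ratio of counts per kb within each library, a quantity in which the scaling of libraries cancels. *Golga7b* over *Golga7* was 0.554 ± 0.0354 in *Rosa* single, 0.573 ± 0.0696 in *Camk2a* single, 0.477 ± 0.0461 in *Rosa* tChIP and 1.03 ± 0.0382 in *Camk2a* tChIP-Seq. *Fam43b* over *Fam43a* was 1.28 ± 0.0878, 1.32 ± 0.153, 0.824 ± 0.126 and 2.50 ± 0.193 in the same order. *Fam135b* over *Fam135a* was 0.447 ± 0.0213, 0.495 ± 0.0247, 0.286 ± 0.0398 and 0.676 ± 0.0645. In all 3 pairs the ratio was highest in every *Camk2a* tChIP library. It was lowest in every *Rosa* tChIP library for the *Fam43* and *Fam135* pairs, whereas for the *Golga7* pair *Rosa* tChIP overlapped both single ChIP groups. Between the lines in single ChIP-Seq, the ratios of the *Golga7* and *Fam43* pairs overlapped. Those of the *Fam135* pair did not, with 0.4225 to 0.4618 in *Rosa* and 0.4662 to 0.51 in *Camk2a*, a difference that was not tested.

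The line comparison in single ChIP-Seq used none of the tChIP-Seq libraries by which the study chose *Golga7b*, *Fam43b* and *Fam135b*. It is therefore the comparison in which the genes could be tested, although a lysate shared between single and tChIP-Seq libraries is not settled. Without FLAG capture both lines gave whole-cortex chromatin, and the study anticipated no large difference between them. A lack of calls in this comparison therefore says nothing about H3K4me3 in neurons. *Xkr4* and the gene lists were chosen with earlier results of these data known, so for them its independence is assumed. None of the 7 regions was called by the quasi-likelihood test of edgeR at an adjusted p under 0.01 (0 of 7), nor by DESeq2 (0 of 7), against 2.15% of all 17993 regions by edgeR (386 regions, 251 with library totals and 118 to 296 when a library was left out) and 34 regions by DESeq2, and 2 of 7 had an unadjusted p under 0.05, against 22.0% of all regions. The log2 fold change, *Camk2a* over *Rosa*, was 0.02 ± 0.0684 (SE) for *Golga7b* (adjusted p = 0.917, edgeR), -0.08 ± 0.0488 for *Fam43b* (adjusted p = 0.341), 0.02 ± 0.0590 for *Fam135b* (adjusted p = 0.863) and -0.05 ± 0.0443 for *Xkr4* (adjusted p = 0.576). The 2 regions with the lower unadjusted p were the paralogs *Fam43a* (-0.11 ± 0.0546, adjusted p = 0.215) and *Fam135a* (-0.12 ± 0.0511, adjusted p = 0.141), where 3 of 3 *Camk2a* libraries lay below the *Rosa* libraries. *Golga7* was at -0.04 ± 0.0648 (adjusted p = 0.785). In the same comparison 3 of 6 oligodendrocyte markers (*Olig1*, *Olig2* and *Cnp*) were called lower in *Camk2a* by edgeR, 0 by DESeq2 and 4 at an unadjusted p under 0.05. The summed level of that list, led by *Cnp*, was 369 ± 7.17 CPM in *Rosa* and 326 ± 3.14 in *Camk2a*, and its part in the values of *Fam43a* and *Fam135a* was not tested.

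The line comparison in tChIP-Seq, on which the genes were selected, gave log2 fold changes of 1.19 ± 0.0956 for *Golga7b*, 1.32 ± 0.0761 for *Fam43b*, 1.31 ± 0.1004 for *Fam135b* and 0.93 ± 0.0747 for *Xkr4*. The paralogs were at 0.08 ± 0.103 (*Golga7*), -0.28 ± 0.0886 (*Fam43a*) and 0.07 ± 0.0837 (*Fam135a*). Of the 7 regions 5 passed the threshold, against 31.6% of all regions, 4 of them higher in *Camk2a* (17.0% of all regions) and 1 lower, *Fam43a* (14.6% of all regions), and nothing is read from these counts. The balance of all regions turns with library totals, from 3062 higher and 2620 lower to 2570 and 3315. The values of *Golga7* and *Fam135a* were near 0 and their sign was not stable, since *Fam135a* was at -0.01 with library totals as the scaling and *Golga7* at -0.02 without *Rosa* tChIP replicate 1. *Fam43a* did not pass by DESeq2 (-0.29), nor without *Camk2a* tChIP replicate 1 (-0.25) or 2 (-0.29) or without *Rosa* tChIP replicate 1 (-0.31) or 3 (-0.22).

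tChIP-Seq was also set against single ChIP-Seq within each line. The study reports biases of the tandem purification (longer DNA, and possibly the FLAG tag and the H2B variant) and for that reason made its differential analysis mainly between the tChIP-Seq sets of the lines, so these values can include such biases. In the *Camk2a* line, tChIP-Seq over single ChIP-Seq, the log2 fold change was 0.79 ± 0.0722 for *Golga7b*, 0.67 ± 0.0546 for *Fam43b*, 0.40 ± 0.0682 for *Fam135b* and 0.25 ± 0.0537 for *Xkr4*. In the *Rosa* line the same genes were at -0.36 ± 0.0999, -0.71 ± 0.0738, -0.87 ± 0.0973 and -0.70 ± 0.0696. *Golga7b* thus had its larger shift in *Camk2a*, *Fam43b* had shifts of similar size in both lines, and *Fam135b* and *Xkr4* had their larger shift in *Rosa*. Whether these genes differ from each other in that respect was not tested. Of 7 astrocyte markers, 6 were called higher and 1 lower in *Rosa* tChIP-Seq (median 0.56), and 6 lower in *Camk2a* tChIP-Seq (median -1.41). Of 7 endothelial markers, only 3 were called higher in *Rosa* (median 0.37), and 7 lower in *Camk2a* (median -1.97). Of 6 oligodendrocyte markers, 1 was higher and 3 lower in *Rosa* (median -0.24), and 1 higher and 4 lower in *Camk2a* (median -1.14). The 6 excitatory markers, a list without some planned markers, were lower in *Rosa* (median -0.88) and higher in *Camk2a* (median 0.37). Of all 17993 regions, 4439 were called higher and 4046 lower in *Rosa*, and 4559 higher and 4058 lower in *Camk2a*. The part of cell types in the values of the 7 genes was not tested. The paralogs were at -0.06 ± 0.0810 (*Golga7*), -0.25 ± 0.0730 (*Fam43a*) and -0.04 ± 0.0659 (*Fam135a*) in *Camk2a* and at -0.16 ± 0.0895, -0.06 ± 0.0744 and -0.21 ± 0.0716 in *Rosa*. These comparisons share the tChIP libraries by which the genes were chosen, and no p is given.

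In *Rosa*, 5 of 7 regions passed the threshold against 47.2% of all regions, and in *Camk2a* 5 of 7 against 47.9%. As the tChIP-Seq libraries that chose the genes enter each of these fits, nothing is read from these counts or from that of the interaction. The interaction term of line with kind of ChIP, fitted to all 12 libraries, was 1.16 ± 0.120 for *Golga7b*, 1.39 ± 0.0925 for *Fam43b*, 1.28 ± 0.119 for *Fam135b* and 0.96 ± 0.0877 for *Xkr4*, and these 4 of 7 regions passed against 26.9% of all regions. It was 0.11 ± 0.122 for *Golga7*, -0.18 ± 0.104 for *Fam43a* and 0.18 ± 0.0977 for *Fam135a*. The calls of *Fam43b*, *Fam135b* and *Xkr4* held under each alternative in each of these 3 comparisons. In *Rosa*, *Golga7b* did not pass with library totals (-0.26) or without *Rosa* tChIP replicate 1 (-0.35) or 3 (-0.32). *Fam135a* there did not pass with library totals (-0.11), by DESeq2 (-0.21), with a minimum of 10 counts (-0.17), or without *Rosa* single replicate 2 (-0.20) or 3 (-0.20) or *Rosa* tChIP replicate 2 (-0.15) or 3 (-0.20). In *Camk2a*, *Fam43a* did not pass by DESeq2 (-0.25) or without *Camk2a* single replicate 2 (-0.23) or *Camk2a* tChIP replicate 1 (-0.22).

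The genes whose profile was most like each of these were found by the root mean square (RMS) difference of log2 CPM over the 12 libraries, with each profile centred on its mean, among 13403 other regions that overlap a TSS. The nearest to *Golga7b* were *Trpc4* (0.0807), *Pde4d* (0.0887) and *Egr4* (0.0921), against a median of 0.488 over all these regions. *Fam43b* was nearest to *Pde4b* (0.0782), *Hs3st4* (0.0806) and *Atp2b2* (0.0824), with a median of 0.508. *Fam135b* was nearest to *Elfn2* (0.0712), *Celf3* (0.0749) and the region of *Ptprd* (0.0790), with a median of 0.507. *Xkr4* was nearest to *Spnb3*, which encodes a spectrin (0.0491), *Extl1* (0.0602) and *Dlg3*, which encodes a postsynaptic scaffold protein (0.0616), with a median of 0.378.

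The paralogs were closest to other genes. *Golga7* was nearest to *Med15* (0.0629), the shared region of *Ahsa1* and *Vipar* (0.0631) and *Rab3a* (0.0665), *Fam43a* to the shared regions of *Gstcd* and *Ints12* (0.0474), *Gnl1* and *Prr3* (0.0524) and *Mrpl46* and *Mrps11* (0.0547), and *Fam135a* to *Chd3* (0.0398), *Dazap1* (0.0461) and the region of *Ube2q1* (0.0493). *Golga7b*, *Fam43b* and *Fam135b* were each farther from their own paralog than from each other and from *Xkr4*. *Golga7b* differed from *Golga7* by an RMS of 0.434 and from *Fam43b* by 0.170, *Fam43b* from *Fam43a* by 0.585 and from *Fam135b* by 0.188, and *Fam135b* from *Fam135a* by 0.454 and from *Xkr4* by 0.157. Many other TSS regions were closer still. *Fam43b* was 216th in nearness to *Golga7b*, *Fam135b* 347th to *Fam43b* and *Xkr4* 174th to *Fam135b*. Since likeness was measured over libraries that include those by which the genes were chosen, it is a description only.

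The nearest counted regions on either side gave the local context of the tChIP-Seq difference between the lines. Beside *Golga7b* (1.19), *Zfyve27* was at 0.18 ± 0.0993 and *Crtac1* at 0.78 ± 0.0990, with gaps of 83053 and 171463 bp. Beside *Fam43b* (1.32), *Cda* was at -0.39 ± 0.266 and *Mul1* at -0.01 ± 0.115, with gaps of 25099 and 37090 bp, so its value was not shared by its close neighbours. The *Fam135b* region (1.31) was 2791099 bp from that of *Khdrbs3* (0.90 ± 0.0624) and 815499 bp from that of *Kcnk9* (1.54 ± 0.0882). *Xkr4* (0.93) had a counted region on one side only, 818375 bp away and without a TSS, at -2.04 ± 0.176. Among the paralogs, *Golga7* lies between *Gins4* (-0.21 ± 0.116) and *Sfrp1* (-0.34 ± 0.137), *Fam43a* between *Lsg1* (-0.24 ± 0.109) and *AI480653* (-0.06 ± 0.0922), and *Fam135a* between *1110058L19Rik* (-0.05 ± 0.159) and *Col19a1* (1.35 ± 0.119), the last being far off at 484845 bp.

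Width was a feature of the regions that the choice of genes did not use directly, although it comes from peak calls, which depend on the signal in the libraries. The *Xkr4* region spanned 5068 bp and was wider than 97.7% of all regions, and those of *Golga7b* (3879 bp), *Fam43b* (3628 bp) and *Fam135b* (3582 bp) were wider than 92.9%, 91.0% and 90.6%. Among the paralogs, *Golga7* (2394 bp) and *Fam135a* (2239 bp) were nearer to the median of TSS regions (2060 bp), but *Fam43a* (3552 bp) was almost as wide as *Fam43b*. In each of the 7 regions the longer part lay downstream of the TSS, for example 3752 bp against 1315 bp upstream at *Xkr4*. Of 1602 TSS regions at least 3582 bp wide, a limit set after the widths were seen, 48.6% were called higher in *Camk2a* tChIP-Seq and 14.7% lower, while of 11802 narrower ones 14.1% were higher and 15.3% lower. The position of *Golga7b*, *Fam43b*, *Fam135b* and *Xkr4* among wide regions that were higher in *Camk2a* is therefore shared with 778 regions in all. The limit is the width of the *Fam135b* region and just leaves out *Fam43a*. Median log2 fold changes were 0.20 in the wide set and -0.03 in the narrower one. Differences in counts between these sets, on which calls also depend, were not allowed for.

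Base composition also differed within the pairs. The ratio of observed to expected CpG was 0.373 in the *Golga7b* region and 0.583 in that of *Golga7*, and 0.322 in the *Fam135b* region and 0.872 in that of *Fam135a*, against a median of 0.605 over TSS regions. The *Fam43* pair did not show this, with 0.587 for *Fam43b* and 0.643 for *Fam43a*, and *Xkr4* was at 0.623. GC content was 54.5% and 52.8% for *Golga7b* and *Golga7*, 60.7% and 56.4% for *Fam43b* and *Fam43a*, 48.3% and 55.4% for *Fam135b* and *Fam135a*, and 49.6% for *Xkr4*. These values are over whole regions of unequal width, not over promoters of a fixed length. The *Golga7b* and *Golga7* regions held 106 and 97 CpG, and those of *Fam135b* and *Fam135a* 67 and 150. The part of width in the ratios was not tested.

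The 200 bases upstream of the TSS were read from the mm9 genome and are shown for *Golga7b*, of whose start sites only 1 lies in a region. Capitals mark matches, on either strand, to the GC box GGGCGG, the box known as CCAAT, the TATA box written as TATAAA, the cAMP response element TGACGTCA and the E-box written as CAGATG. The inner *Golga7b* TSS, which the region covers, is preceded by chr19:42330029-42330228 on the plus strand, within an intron of the longer transcript. It is shown beside the window of the outer TSS, chr19:42321864-42322063 on the plus strand, which no region covers.
Golga7b inner TSS: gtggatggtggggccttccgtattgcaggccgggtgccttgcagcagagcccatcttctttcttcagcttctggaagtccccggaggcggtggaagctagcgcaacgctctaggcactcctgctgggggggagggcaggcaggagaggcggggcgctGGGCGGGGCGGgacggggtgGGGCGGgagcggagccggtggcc
Golga7b outer TSS: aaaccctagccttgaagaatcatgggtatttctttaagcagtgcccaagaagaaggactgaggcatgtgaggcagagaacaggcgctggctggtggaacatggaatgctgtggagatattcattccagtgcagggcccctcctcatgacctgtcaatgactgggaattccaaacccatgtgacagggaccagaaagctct
The inner window holds 14 CpG, a GC content of 70.5% and 3 matches to GGGCGG, of which a pair overlap by a base, and the outer window 1 CpG, 50.5% GC and no match to these motifs. The median was 15 CpG over 38825 windows whose TSS lies in a region and 5 over all 86874 windows, so the inner window was near the median of covered windows. In the covered windows the GC box was found in 58.4%, the CCAAT box in 28.7%, the TATA box in 3.67%, the cAMP response element in 2.86% and the E-box in 6.71%, and over all windows in 30.6%, 27.3%, 9.50%, 1.49% and 11.2%. A match describes these letters only. In some further windows at covered TSSs, *Fam135a* had 2 matches to GGGCGG among 18 CpG, *Fam43b* had 2 matches to GGGCGG and 1 to CCAAT, *Xkr4* had 1 to GGGCGG among 36 CpG, *Golga7* had 1 and 2 to GGGCGG at its TSSs, and *Fam43a* had no match.

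Genes of the same pathways were counted for context. Of 29 annotated protein palmitoylation genes, other than the *Golga7* pair, 25 had a region (3 further symbols were not in the annotation). In tChIP-Seq 5 were higher and 2 lower in *Camk2a* by edgeR, against 17.0% and 14.6% of all regions (a balance that turns with library totals), and 3 were called by DESeq2, against 4177 of all 17993 regions (median -0.00494, and -0.00327 over all regions), with *Zdhhc2* (0.69) and *Zdhhc23* (0.38) at the top and *Lyplal1* (-0.32, not past the threshold) and *Zdhhc5*, which encodes the GOLGA7B partner (-0.29), at the bottom. *Zdhhc9*, which encodes the GOLGA7 partner, was at 0.04 ± 0.123 and not past the threshold. In single ChIP-Seq 0 of these 25 were called by edgeR and 0 by DESeq2, and 2 had an unadjusted p under 0.05, against 22.0% of all regions.

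Of 38 genes of lipid scrambling and flipping other than *Xkr4*, 30 had a region, and 8 were higher and 5 lower in *Camk2a* tChIP-Seq by edgeR, against 17.0% and 14.6% of all regions, and 9 were called by DESeq2, against 4177 of all 17993 (median 0.03). The XK-related genes split, with *Xkr7* (1.17) and *Xkr6* (0.53) called higher, *Xkr8*, whose product is cut by caspases (-1.45), called lower, and *Xk* (0.10) and *Xkr5* (-0.23) not past the threshold. *Ano3* (1.38) was the highest and *Plscr2* (-2.53) the lowest of the list. In single ChIP-Seq 1 of the 30, *Atp11a*, was called lower by edgeR and 0 by DESeq2, and 5 had an unadjusted p under 0.05, against 22.0% of all regions. Of 30 genes listed for a phosphotyrosine-binding domain, other than the *Fam43* pair, 29 had a region. The list also holds *Apbb1ip* (0.11), whose product is not a protein of that kind and whose value was the list median. In *Camk2a* tChIP-Seq 8 were higher and 6 lower by edgeR, against 17.0% and 14.6% of all regions. By DESeq2 14 were called, against 4177 of all 17993 (median 0.11). Values ran from *Anks1b* (1.23) and *Mapk8ip2* (0.86) to *Dab2* (-0.74) and *Gulp1* (-0.80). In single ChIP-Seq 0 of these 29 were called by edgeR and 0 by DESeq2, and 8 had an unadjusted p under 0.05, against 22.0% of all regions.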

How the data were processed

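Reads of 80 nt were trimmed, mapped to mm9 and counted per called peak by the authors. Per the submitters' processing notes the tools were bcl2fastq 1.8.4, Bowtie 1.0.0, Bowtie2 2.1.0, SAMtools 0.1.19 and bedtools 2.17.0. The deposited values are whole-number counts per region, without normalization, on 1 shared list of 17993 regions, and how that list was merged is not given in the sources used here. TSSs were taken from GENCODE M1 and sequence from NCBIM37 (mm9). Each comparison was fitted to its own 6 libraries, and the interaction to all 12, with edgeR 4.0.16 (R 4.3.3), TMM, glmQLFit and glmQLFTest, without a low-count filter, with p-values adjusted by Benjamini-Hochberg over the 17993 regions. An adjusted p under 0.01 made a call. For the SE, the absolute log2 fold change was divided by the root of the F statistic. Replicate libraries differed about as much as counting noise (chi-square per degree of freedom 1.03 to 1.09). The labels only number the libraries of a group, and the study calls its replicate experiments independent. Whether they came from separate lysates or animals is not stated in the sources used here. The p-values therefore measure the spread between these libraries, which was near counting noise and may not hold the spread between animals. Alternatives were DESeq2 1.42.0, its size factors, library totals, a minimum of 10 counts, a threshold of 0.05, 1 fit over all libraries, a replicate block and leaving out each library. Named genes were the 7 genes, their flanking regions, the 3 nearest profiles and the 2 highest and 2 lowest of each pathway list by the tChIP-Seq line comparison. *Zdhhc9*, *Xk*, *Xkr5*, *Xkr6*, *Atp11a*, *Apbb1ip* and the single genes named from the marker lists were named after their values were seen. Some planned marker genes and 1 promoter window are not reported here, and list values are over the remaining genes. The genes and lists were chosen with earlier results of these data known. Tables were made in Python 3.11.15 with pandas 2.3.3 and numpy 2.4.6.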

Additional observations from a re-analysis of the deposited data

Results flagged for a closer look

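The interaction term of the fit over 12 libraries compares the change from single ChIP-Seq to tChIP-Seq between the lines. On the log2 scale it was, *Camk2a* minus *Rosa*, 1.16 for *Golga7b*, 1.39 for *Fam43b*, 1.28 for *Fam135b* and 0.96 for *Xkr4*. The tChIP-Seq libraries in this term are those by which the genes were chosen, so the values are a description and no call is read from them.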

How the results depend on the processing

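Over 12 to 17 alternatives a comparison, the 7 genes gave 455 log2 fold changes, of which 18 lost a call, none gained one, and no called value changed sign. Values near 0 that were not called were counted as kept when they changed sign by less than their standard error. Those so kept were those of *Golga7b* (-0.04 to 0.08), *Golga7* (-0.08 to 0.01) and *Fam135b* (-0.0035 to 0.0595) between the lines in single ChIP-Seq and of *Golga7* (-0.02 to 0.19) and *Fam135a* (-0.01 to 0.15) between the lines in tChIP-Seq. That of *Fam43a* between the kinds of ChIP in *Rosa* changed sign by more than its standard error (-0.06, and 0.04 with library totals) and was the 1 value counted as moved. The lost calls were those of *Fam43a* in tChIP-Seq between the lines (5 of 12 alternatives) and in *Camk2a* (3 of 12) and those of *Golga7b* (3 of 12) and *Fam135a* (7 of 12) in *Rosa*. In *Rosa* the number of the 7 regions past the threshold was 5, and 3 with library totals, and it ran from 3 to 5 when a library was left out, with 3 without *Rosa* tChIP replicate 3. Between the lines in single ChIP-Seq, 386 regions of all were called, against 251 with library totals, 34 by DESeq2, 1191 at 0.05 and 118 to 296 when a library was left out. The values were 204, 118 and 226 without *Camk2a* single replicates 1, 2 and 3 and 190 and 164 without *Rosa* single replicates 2 and 3. In *Camk2a*, 8617 regions were called and 5563 by DESeq2. The causes were not tested. With library totals the share of higher calls went from 43.3% to 77.3% between the lines in single ChIP-Seq (167 higher and 219 lower to 194 and 57), from 53.9% to 43.7% in tChIP-Seq (3062 and 2620 to 2570 and 3315), from 52.3% to 67.7% in *Rosa* (4439 and 4046 to 5298 and 2522) and from 50.9% to 38.9% for the interaction (2466 and 2375 to 1894 and 2970). With library totals the level moved by over 1 SD for *Fam43a*, *Fam135a* and *Xkr4* in *Rosa* single and for *Fam135a* in *Camk2a* single ChIP-Seq. A replicate block gave 433 (single), 5468 (tChIP), 8473 (*Rosa*), 8516 (*Camk2a*) and 4864 (interaction) regions called, and 0, 5, 5, 5 and 4 of the 7. Deviations of libraries with the same number correlated at r = -0.0126 to 0.0547, below the 0.1 at which they would have been paired. Since replicates differ little beyond counting noise, a low r was expected with or without a shared lysate, and the check does not settle it. As a hint only, each library between the kinds in *Rosa* correlated best with its own number, which was not so in the other comparisons of 2 groups. Depth limited *Rosa* tChIP-Seq most. The input and FLAG libraries were not analysed here, the level of H3K4me3 was not set against input, and line, tamoxifen and cell composition cannot be told apart in the line comparisons.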
